A study of Mus musculus with 19 samples.

Results

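Interferon-stimulated genes are the transcripts that cells switch on after sensing a virus, bacterial material or an interferon, and 42 of them were followed here through the medial prefrontal cortex of mice given lipopolysaccharide (LPS), sedanolide or both. The members were chosen by gene name as genes induced by type I or type II interferon, with earlier results of these data known. Shares of members called, set beside those of all genes below, are therefore no independent evidence. All 42 were found among the 57010 genes of the deposited count table, and each had at least 10 counts in 4 or more of the 19 libraries, a minimum that 17872 genes of the table met. All 42 were also among the 17757 genes that entered the statistical model.

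The libraries are bulk poly(A) RNA-seq of cortical tissue from wild-type mice in 4 groups. Control mice (n = 4, numbered 1, 2, 4 and 5 by the labels) were gavaged with saline for 8 days and injected with saline for 5 days. LPS mice (n = 5) had the same saline gavage, begun 3 days ahead of the injections, and 5 daily intraperitoneal doses of LPS at 1 mg/kg. Sedanolide mice (n = 5) were gavaged with sedanolide, a phthalide of celery seed, at 20 mg/kg for 8 days and injected with saline, and co-treated mice (n = 5) were given sedanolide by gavage and LPS by injection at these doses. All groups therefore carried the handling of gavage and injection. The labels do not state strain, sex, age or whether replicates were separate animals, so a p-value here reflects the spread among the samples given, which may be technical. A control replicate 3 was not analysed here.

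LPS is the cell wall component of Gram-negative bacteria and is sensed by Toll-like receptor 4, whose TRIF branch can induce interferon-beta. Type I interferons act through the receptor chains IFNAR1 and IFNAR2 and a complex that holds STAT2 and IRF9 and binds the interferon-stimulated response element. Interferon-gamma acts through IFNGR1 and IFNGR2, and its early target genes carry the gamma-activated site. In brain, microglia, endothelial cells and astrocytes are known to carry out this programme, and its products include sensors of foreign nucleic acid, proteins that block viral entry or translation, and GTPases that attack the compartments of intracellular microbes.

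Promoter sequence was available for 31 of the 42 members in the RefSeq windows on GRCm38.p6, which run from 250 bases before a gene's start to 50 bases after it. The response element, searched as GAAANNGAAA on both strands, was present in 19 of these 31 members (61.3%) and in 3.99% of the 27025 genes with a window, or 3.44% of all 32851 windows. The gamma-activated site, searched as TTCNNNGAA, which reads the same on both strands, was present in 11 of 31 members (35.5%) and in 9.55% of genes. Overlapping copies were counted separately, each motif was searched without regard to the other, and a match is a run of letters, not a measured binding site. The 250 bases before the start follow for 7 members, 5′ to 3′ on the gene's strand, with the response element in capitals. Gbp2, Gbp5 and Bst2 are shown as members that rose with LPS and hold the element, Ifit1 and Isg15 as members that hold it but were not called in either LPS comparison, and Irf7 and Lgals3bp as members that rose without it in this window.
Gbp2, chr3:142620413-142620662, plus strand: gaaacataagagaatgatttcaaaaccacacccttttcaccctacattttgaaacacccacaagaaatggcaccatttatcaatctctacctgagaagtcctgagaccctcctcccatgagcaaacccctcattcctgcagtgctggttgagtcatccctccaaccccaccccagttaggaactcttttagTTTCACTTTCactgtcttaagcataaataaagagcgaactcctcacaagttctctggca
Gbp5, chr3:142496684-142496933, plus strand: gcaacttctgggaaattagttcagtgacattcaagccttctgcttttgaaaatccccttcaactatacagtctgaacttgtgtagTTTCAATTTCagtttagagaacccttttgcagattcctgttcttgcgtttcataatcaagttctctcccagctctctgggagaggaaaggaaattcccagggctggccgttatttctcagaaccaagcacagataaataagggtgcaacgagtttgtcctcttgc
Bst2, chr8:71537473-71537722, minus strand: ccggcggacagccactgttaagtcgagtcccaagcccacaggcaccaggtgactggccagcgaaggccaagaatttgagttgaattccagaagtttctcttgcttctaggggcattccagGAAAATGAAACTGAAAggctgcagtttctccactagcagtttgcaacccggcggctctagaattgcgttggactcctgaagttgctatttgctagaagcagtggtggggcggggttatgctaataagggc
Ifit1, chr19:34640639-34640888, plus strand: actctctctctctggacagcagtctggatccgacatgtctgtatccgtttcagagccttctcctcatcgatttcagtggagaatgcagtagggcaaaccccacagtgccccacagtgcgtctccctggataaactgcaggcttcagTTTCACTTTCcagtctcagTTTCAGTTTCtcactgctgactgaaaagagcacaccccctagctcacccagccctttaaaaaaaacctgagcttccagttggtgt
Isg15, chr4:156200819-156201068, minus strand: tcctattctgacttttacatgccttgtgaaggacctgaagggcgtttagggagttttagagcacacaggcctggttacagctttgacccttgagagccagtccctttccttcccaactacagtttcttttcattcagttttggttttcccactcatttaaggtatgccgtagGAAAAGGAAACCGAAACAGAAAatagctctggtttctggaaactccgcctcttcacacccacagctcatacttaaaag
Irf7, chr7:141266425-141266674, minus strand: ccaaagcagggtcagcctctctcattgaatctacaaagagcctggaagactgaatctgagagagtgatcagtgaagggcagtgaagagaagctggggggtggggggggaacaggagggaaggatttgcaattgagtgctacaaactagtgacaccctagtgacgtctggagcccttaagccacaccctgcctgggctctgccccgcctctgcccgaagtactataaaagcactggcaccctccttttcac
Lgals3bp, chr11:118401960-118402209, minus strand: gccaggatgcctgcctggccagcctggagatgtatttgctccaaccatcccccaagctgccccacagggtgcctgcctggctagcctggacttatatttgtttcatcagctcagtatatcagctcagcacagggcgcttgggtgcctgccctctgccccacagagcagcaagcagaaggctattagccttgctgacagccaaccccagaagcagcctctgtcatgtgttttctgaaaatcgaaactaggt
The element nearest the start lay 49 bases before it in Gbp2, 155 in Gbp5, 114 in Bst2, 75 in Ifit1 and 56 in Isg15. Bst2 and Ifit1 held 2 copies and Isg15 held 3, overlapping into 1 run of GAAA repeats in Bst2 and Isg15.

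Library totals ran from 19.1 to 24.3 M counts (M for mega), and a level in CPM is a count divided by the TMM-scaled library total in M. The libraries stood apart in transcripts of the olfactory bulb, the region in front of the prefrontal cortex. Cdhr1, a cadherin of bulb projection neurons, was above 20 CPM in 7 libraries (control 1 and 5, LPS 2, 3 and 4, sedanolide 3 and 4) and below it in the other 12, which included every co-treated library (libraries are named by group and replicate number). Neuronal markers, whose 6 genes summed to 4780 to 7130 CPM over all libraries, show brain tissue, but their sum does not tell cortex from bulb. Of the 6, Gad1 did follow Cdhr1, at 355 to 1550 CPM in those 7 libraries and 226 to 277 CPM in the other 12. Counts of members called are given with and without the bulb-containing libraries. For most single members no change without those libraries is printed, so which calls depend on them is mostly not shown.

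The 42 members were a small part of each transcriptome. Together they summed to 228 to 389 CPM in the 4 control libraries, 399 to 480 in the 5 LPS libraries, 207 to 242 in the 5 sedanolide libraries and 325 to 417 in the 5 co-treated libraries. Every LPS library was above every library of the control and sedanolide groups in this sum, and every co-treated library was above every sedanolide library. Control 1, at 389, overlapped the co-treated range. In bulk tissue, fewer cells of a type and less RNA per cell cannot be told apart, which applies to each level below.

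**Figure D1:**
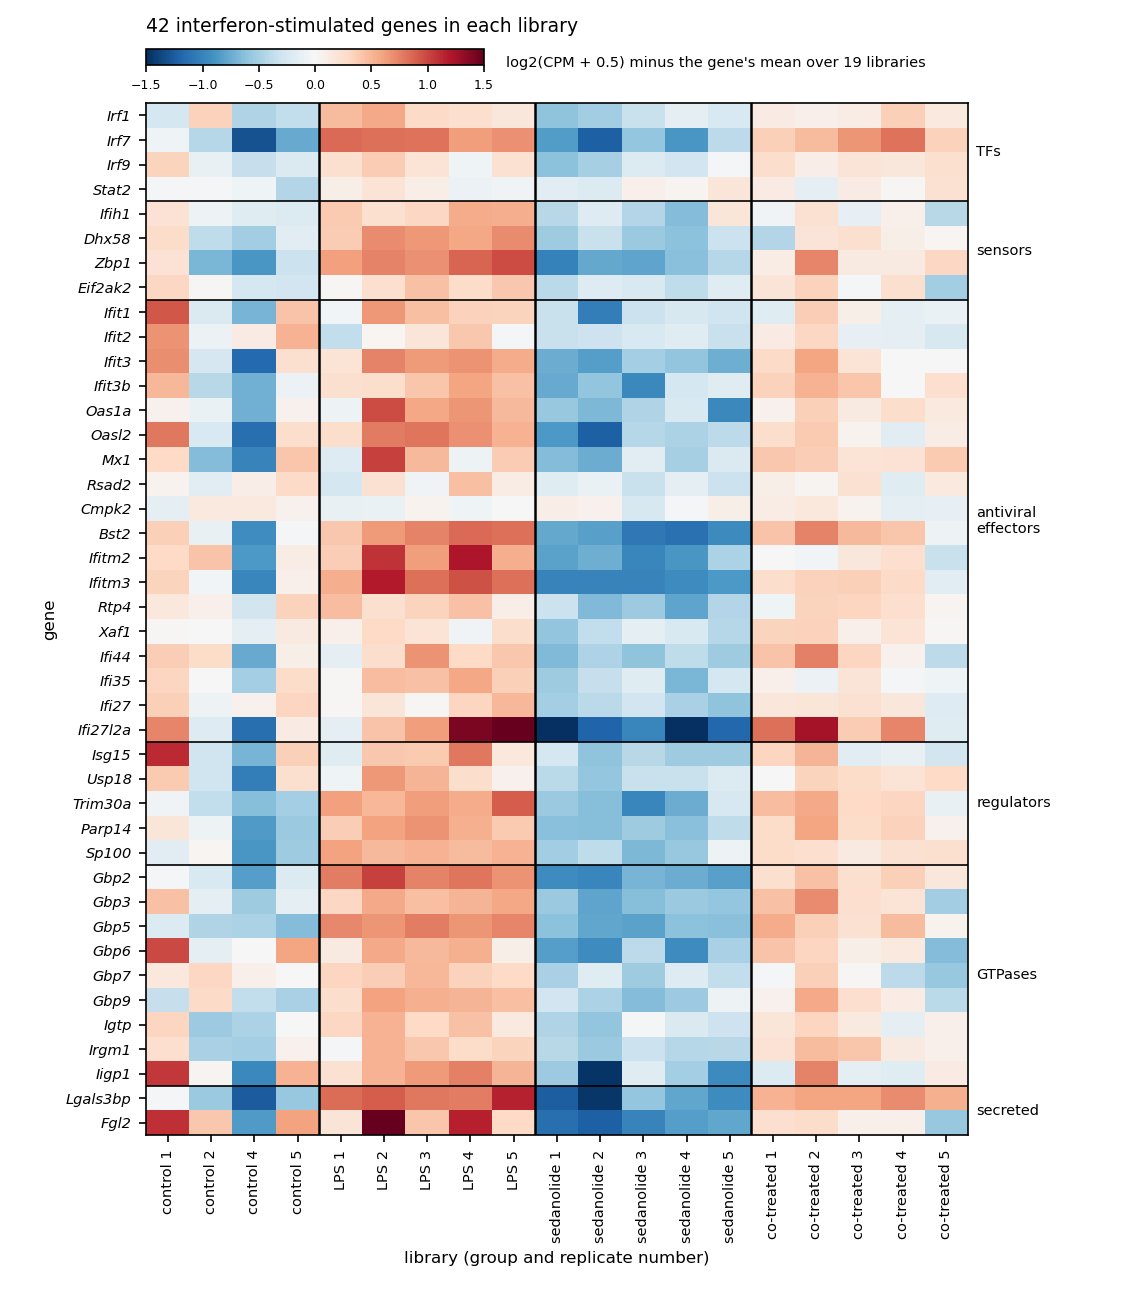
Heat map of 42 interferon-stimulated genes (rows, by role) in 19 libraries (columns, by group), as log2(CPM + 0.5) minus the gene's mean over all libraries, with colours limited at 1.5 in either direction. Red marks a level above the gene's mean and blue one below it; the LPS columns are mostly red, the sedanolide columns mostly blue, and the 4 control columns differ among themselves, from control 1 with a mean deviation of 0.31 to control 4 with -0.59.

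Levels per kilobase of exon placed Ifitm3 first in the control group, at 24.7 CPM per kb, followed by Ifi27 at 19.7, Lgals3bp at 7.7 and Ifit3 at 6.99. The lowest were Gbp6 at 0.263, Mx1 at 0.113 and Zbp1 at 0.102 CPM per kb. Ifitm3 and Ifi27 encode small membrane proteins, the first of them a known block to virus entry at endosomes. Exon lengths for this scale came from the GRCm38 annotation. After LPS the order of the leading members differed, with Ifitm3 at 48.7, Lgals3bp at 21.1 and Ifi27 at 20.3 CPM per kb.

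The comparison of LPS with control asked how repeated LPS injection altered these transcripts in the cortex. Of the 42 members, 15 were called higher and 0 lower at an adjusted p below 0.05, against 8.47% of all genes called higher and 2.44% called lower. The 15 were Irf1, Irf7, Dhx58, Zbp1, Oas1a, Bst2, Ifitm2, Ifitm3, Trim30a, Parp14, Sp100, Gbp2, Gbp5, Gbp9 and Lgals3bp. The median log2 change of the 42 was 0.52, beside 0 over all genes tested, and single members ran from -0.29 (Ifit2) to 1.88 (Zbp1). In 12 members every LPS library was above every control, which held for 7.93% of all genes. The count moved with the controls, to 11 without control 4 and 21 without control 1, and 11 of the 15 calls were kept whichever of the 19 libraries was left out. With the libraries of low Cdhr1 alone (n = 2 control, 2 LPS) 14 members were called higher, beside 722 of 17753 genes. These were not the same members throughout, since 5 of the 15 calls were lost and 4 were new.

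The same question was asked in the presence of sedanolide by comparing co-treated with sedanolide libraries, a pair of groups that shares no library with the first comparison. Here 25 of 42 members were called higher and 0 lower, against 5.09% and 0.484% of all genes. The median log2 change of the members was 0.85, beside -0.02 over all genes tested, and all 42 changes were above 0, from 0.02 (Cmpk2) to 2.82 (Ifi27l2a). In 28 members every co-treated library was above every sedanolide library, which held for 5.4% of all genes. A set of 19 of the 25 calls was kept in every fit that left out 1 library, and the count ran from 21 to 28 over those fits. With the libraries of low Cdhr1 alone (n = 3 sedanolide, 5 co-treated) 26 members were called higher, beside 823 of 17753 genes. Of the 25 calls 3 were lost there, and 4 were new.

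Calls in the 2 LPS comparisons overlapped in 13 members, which are 86.7% of the 15 and 52% of the 25. Dhx58 and Gbp9 were called only against control. Irf9, Ifit3, Ifit3b, Rtp4, Xaf1, Ifi44, Ifi27, Ifi27l2a, Gbp3, Gbp6, Irgm1 and Fgl2 were called only against sedanolide. The test of the difference itself, the interaction, called 0 of the 42 members with edgeR and 0 of 40 given an adjusted p by DESeq2 (0.586% of all genes with edgeR), and 7 members had an unadjusted p under 0.05. Its smallest adjusted p among members was 0.128, for Ifi27. With the olfactory bulb index as a covariate 1 member, Gbp6, was called (1.65, adjusted p = 0.0364), beside 1.77% of all genes, and no other alternative run called any.

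**Figure D2:**
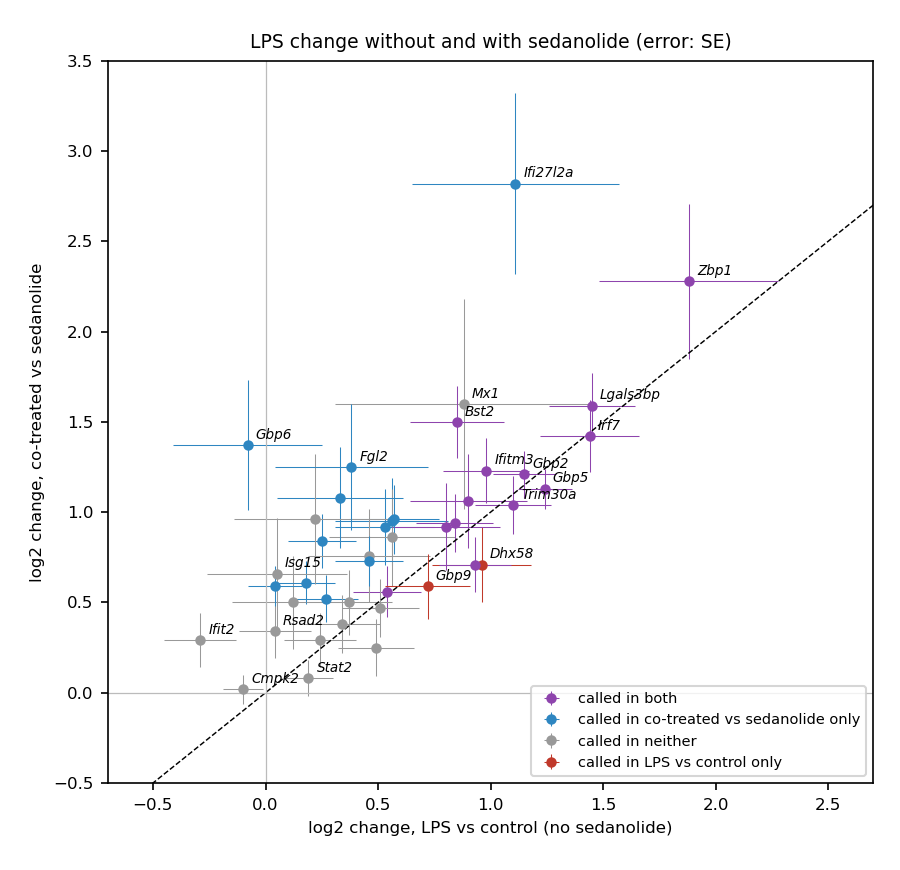
Log2 change of each of the 42 members in LPS against control (x axis) and in co-treated against sedanolide (y axis), with bars of 1 SE on both axes and a dashed line of equal change. Colours give the calls; Zbp1 was highest on the x axis at 1.88 and Ifi27l2a highest on the y axis at 2.82, and Cmpk2 and Stat2 lay near 0 on both.

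Among the transcription factors, Irf7 had the largest change and Stat2 the smallest. Irf7 encodes the factor that amplifies type I interferon production. It was counted at 5.43, 4.13, 2.01 and 3.17 CPM in control and 10.7, 10.5, 10.4, 9.08 and 9.49 CPM in LPS libraries, and at 2.97, 2.15, 3.65, 2.9 and 4.25 CPM in sedanolide and 7.47, 8.14, 9.36, 10.4 and 7.41 CPM in co-treated libraries. Neither pair of groups overlapped, and the log2 change was 1.44 against control (SE 0.22, adjusted p = 0.000107) and 1.42 against sedanolide (SE 0.2, adjusted p = 9.65e-05). In the table's coordinates Irf7 (ENSMUSG00000025498) lies on chromosome 7 from 140842619 to 140846394. It overlaps Phrf1 on the opposite strand, and whether counting used strand is not given in the sources used here, so reads of the 2 genes cannot be told apart. Irf1, a factor shared by the responses to both interferon types, stood at 6.47, 10.1, 5.65 and 6.01 CPM in control and 11.1, 11.9, 9.71, 9.48 and 8.95 CPM in LPS libraries, and at 5.03, 5.33, 6.14, 7.05 and 6.67 CPM in sedanolide and 8.62, 8.36, 8.56, 10.2 and 8.75 CPM in co-treated libraries. Control 2 lay within the LPS range, while co-treated and sedanolide libraries did not overlap. Its log2 change was 0.54 against control (SE 0.15, adjusted p = 0.0278) and 0.56 against sedanolide (SE 0.14, adjusted p = 0.0244), and the first call was lost without control 1, 4 or 5 or LPS 1 or 2 and the second without sedanolide 1 or 2 or co-treated 4. Irf9, the DNA-binding partner of STAT2, was called against sedanolide (log2 change 0.52, SE 0.13, adjusted p = 0.0157) and not against control (0.27, SE 0.14, adjusted p = 0.227), and it overlaps Rnf31. Stat2 was at 14.4 to 19.5 CPM in controls and 18.6 to 22.9 CPM after LPS (log2 change 0.19, SE 0.11, adjusted p = 0.289).

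The nucleic acid sensors held the member with the largest change against control, Zbp1, which encodes a sensor of Z-form nucleic acid that can trigger necroptosis. Zbp1 was a low transcript, at 0.776, 0.185, 0.0982 and 0.376 CPM in control and 1.18, 1.34, 1.27, 1.51 and 1.66 CPM in LPS libraries, and at 0.0458, 0.147, 0.133, 0.21 and 0.32 CPM in sedanolide and 0.688, 1.32, 0.705, 0.708 and 0.862 CPM in co-treated libraries. Every LPS library was above every control and every co-treated library was above every sedanolide library, although some sedanolide and control libraries were near the floor of 3 counts (0.111 to 0.161 CPM). The log2 change was 1.88 against control (SE 0.4, adjusted p = 0.0036) and 2.28 against sedanolide (SE 0.43, adjusted p = 0.00178). Dhx58, encoding LGP2, a regulator of RIG-I-like receptors, was at 1.99, 1.07, 0.933 and 1.34 CPM in control and 2.16, 2.84, 2.71, 2.57 and 2.84 CPM in LPS libraries, with no overlap, and at 0.915, 1.13, 0.889, 0.839 and 1.14 CPM in sedanolide and 1.01, 1.85, 1.93, 1.68 and 1.59 CPM in co-treated libraries, with co-treated 1 inside the sedanolide range. It rose against control (log2 change 0.96, SE 0.22, adjusted p = 0.00507), and its change against sedanolide missed the threshold (0.71, SE 0.21, adjusted p = 0.0556). Ifih1, encoding the RNA sensor MDA5, was at 6.18 to 8.42 CPM in controls and 8.57 to 10.8 CPM after LPS, groups that did not overlap, with an adjusted p of 0.0652. Eif2ak2, encoding the double-stranded RNA kinase PKR, was not called in either comparison (log2 change 0.34, SE 0.17, and 0.38, SE 0.16).

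Antiviral effectors made up 18 members, of which 4 were called against control (Oas1a, Bst2, Ifitm2 and Ifitm3) and 11 against sedanolide. Ifitm3 was at 22.5, 17.2, 8.7 and 18.6 CPM in control and 26, 41, 31.8, 34.7 and 31.7 CPM in LPS libraries, and at 8.6, 8.56, 8.58, 8.98 and 9.5 CPM in sedanolide and 21.3, 22.6, 22.8, 21.7 and 15.6 CPM in co-treated libraries. The sedanolide libraries were nearly level and all below the co-treated range, and the LPS libraries were all above the controls. Its log2 change was 0.98 against control (SE 0.19, adjusted p = 0.00145) and 1.23 against sedanolide (SE 0.18, adjusted p = 0.00013). Bst2, encoding tetherin, which holds budding virions at the cell surface, was at 8.24, 5.8, 3.09 and 6.18 CPM in control and 8.55, 10.1, 10.9, 11.8 and 11.6 CPM in LPS libraries, and at 3.52, 3.38, 2.76, 2.64 and 3.01 CPM in sedanolide and 8.71, 10.9, 9.03, 8.62 and 5.99 CPM in co-treated libraries. Both LPS groups were above their comparison groups with no overlap (log2 change 0.85, SE 0.21, adjusted p = 0.00877, and 1.5, SE 0.2, adjusted p = 4.2e-05). Fitted on the LPS and control libraries alone, the first of these had an adjusted p of 0.0711.

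Ifitm2, a close relative of Ifitm3, was at 4.88, 5.42, 1.92 and 4.22 CPM in control and 5.17, 8.79, 6.29, 9.63 and 5.9 CPM in LPS libraries, with LPS 1 inside the control range, and at 2.01, 2.15, 1.73, 1.89 and 2.65 CPM in sedanolide and 3.9, 3.78, 4.42, 4.73 and 2.97 CPM in co-treated libraries, with no overlap. It was called in both LPS comparisons (log2 change 0.8, SE 0.24, adjusted p = 0.0394, and 0.92, SE 0.24, adjusted p = 0.0234), and the first call was lost without control 4 or 5, LPS 2, 3 or 4, sedanolide 4 or co-treated 1, the second without sedanolide 3 or 4 or co-treated 3 or 4. Oas1a, encoding an oligoadenylate synthetase that activates RNase L, was at 1.55, 1.34, 0.688 and 1.55 CPM in control and 1.36, 3.36, 2.43, 2.62 and 2.25 CPM in LPS libraries, with LPS 1 among the controls, and at 0.824, 0.734, 0.934, 1.17 and 0.502 CPM in sedanolide and 1.56, 2.02, 1.65, 1.86 and 1.68 CPM in co-treated libraries, with no overlap. Its log2 change was 0.9 against control (SE 0.26, adjusted p = 0.0322), a call lost without control 4 or LPS 2, 3 or 4, and 1.06 against sedanolide (SE 0.26, adjusted p = 0.0149). Oasl2, of the same gene family, was not called, at adjusted p of 0.228 and 0.079.

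The IFIT genes encode tetratricopeptide proteins that bind foreign RNA, and their levels in controls were scattered. Ifit3 was at 19.7, 9.92, 5.06 and 14.2 CPM in control and 13.9, 20.4, 18.9, 19.4 and 17.8 CPM in LPS libraries, and at 6.91, 6.55, 8.27, 7.76 and 6.99 CPM in sedanolide and 14.7, 18.2, 13.8, 11.9 and 11.9 CPM in co-treated libraries. The control libraries spanned most of the range of the whole study, whereas the sedanolide libraries sat together below every co-treated library. Ifit3 was called against sedanolide (log2 change 0.95, SE 0.24, adjusted p = 0.0187), a call lost without co-treated 2 (adjusted p = 0.0622), and not against control (0.56, SE 0.25, adjusted p = 0.167). Its near copy Ifit3b gave 0.92 (SE 0.21, adjusted p = 0.0087) and 0.53 (SE 0.22, adjusted p = 0.135) in the same comparisons, and reads may be split between the copies. Ifit1 gave 0.12 (SE 0.27) against control and 0.5 (SE 0.26) against sedanolide and was called in neither.

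Ifi27 and Ifi27l2a encode small hydrophobic proteins of interferon-treated cells, and both were called against sedanolide and not against control. Ifi27 was at 32.7, 24.2, 26.7 and 31.9 CPM in control and 25.9, 28.9, 25.9, 32.1 and 36.2 CPM in LPS libraries, and at 17.8, 19.2, 20.8, 18 and 16.6 CPM in sedanolide and 28.7, 29, 30, 28.8 and 22.3 CPM in co-treated libraries. LPS and control libraries overlapped throughout (log2 change 0.04, SE 0.12, adjusted p = 0.86), while every co-treated library was above every sedanolide library (0.59, SE 0.11, adjusted p = 0.0017). Ifi27l2a was at 3.44, 1.58, 0.589 and 2.09 CPM in control and 1.65, 2.71, 3.17, 5.85 and 7.72 CPM in LPS libraries, and at 0.229, 0.538, 0.711, 0.294 and 0.548 CPM in sedanolide and 3.71, 5.15, 2.59, 3.45 and 1.59 CPM in co-treated libraries. Its co-treated and sedanolide libraries did not overlap (log2 change 2.82, SE 0.5, adjusted p = 0.00104), and its LPS and control libraries did (1.11, SE 0.46, adjusted p = 0.144). The interaction was 0.54 for Ifi27 (SE 0.16, adjusted p = 0.128) and 1.71 for Ifi27l2a (SE 0.68, adjusted p = 0.227), neither of them called. Rtp4, encoding a receptor transporter protein with antiviral activity, and Xaf1, encoding an XIAP-binding protein linked to apoptosis, changed by 0.84 (SE 0.15, adjusted p = 0.000762) and 0.61 (SE 0.12, adjusted p = 0.0029) against sedanolide. Ifi44 changed by 1.08 (SE 0.28, adjusted p = 0.0222), a call lost without sedanolide 1, 3 or 5 or co-treated 1 or 2.

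Ubiquitin-like modifiers and regulators comprised 5 members, of which Trim30a, Parp14 and Sp100 were called in both LPS comparisons and Isg15 and Usp18 in neither. Trim30a, encoding a RING-type regulator of Toll-like receptor signalling, was at 5.25, 4.13, 3.34 and 3.72 CPM in control and 8.65, 7.97, 8.72, 8.27 and 10.7 CPM in LPS libraries, and at 3.57, 3.33, 2.53, 3.06 and 4.57 CPM in sedanolide and 7.75, 8.41, 6.87, 6.99 and 5.04 CPM in co-treated libraries. No groups overlapped in either pair (log2 change 1.1, SE 0.17, adjusted p = 0.000167, and 1.04, SE 0.16, adjusted p = 0.000289). Sp100, a component of PML nuclear bodies, was at 5.84, 6.77, 3.39 and 4.43 CPM in control and 10.3, 9.47, 9.75, 9.43 and 9.75 CPM in LPS libraries, and at 4.48, 4.99, 3.96, 4.32 and 6.26 CPM in sedanolide and 8.16, 8.01, 7.34, 7.87 and 7.89 CPM in co-treated libraries, with no overlap in either pair. Its log2 change was 0.93 (SE 0.16, adjusted p = 0.000369) and 0.71 (SE 0.15, adjusted p = 0.0042). Parp14, an ADP-ribosyltransferase, gave 0.84 (SE 0.17, adjusted p = 0.00247) and 0.94 (SE 0.16, adjusted p = 0.000743).

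Isg15 encodes the ubiquitin-like protein that is conjugated to others after interferon. It was at 7.13, 2.36, 1.67 and 4.01 CPM in control and 2.59, 4.13, 4.11, 5.55 and 3.43 CPM in LPS libraries, and at 2.43, 1.81, 2.13, 1.93 and 1.92 CPM in sedanolide and 3.9, 4.49, 2.63, 2.74 and 2.41 CPM in co-treated libraries. The highest value of the study was control 1, the other 3 controls lay within or below the LPS range, and every co-treated library except co-treated 5, at 2.41 CPM, was above every sedanolide library. The log2 change was 0.05 against control (SE 0.31, adjusted p = 0.944) and 0.66 against sedanolide (SE 0.31, adjusted p = 0.29). Usp18, encoding the protease that removes ISG15, gave 0.46 (SE 0.27) and 0.76 (SE 0.26).

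The guanylate-binding proteins and immunity-related GTPases comprised 9 members, 3 of them called against control (Gbp2, Gbp5 and Gbp9) and 5 against sedanolide (Gbp2, Gbp3, Gbp5, Gbp6 and Irgm1). Gbp5, which promotes inflammasome assembly, was at 4.84, 3.99, 3.93 and 3.42 CPM in control and 9.64, 9.26, 10, 9.23 and 9.75 CPM in LPS libraries, and at 3.52, 3.08, 3.02, 3.52 and 3.47 CPM in sedanolide and 8.57, 7.35, 6.68, 8.01 and 5.86 CPM in co-treated libraries. The groups were tight and separate, and Gbp5 had the smallest adjusted p of the members in both comparisons (log2 change 1.24, SE 0.12, adjusted p = 5.79e-07, and 1.13, SE 0.11, adjusted p = 1.4e-06). Gbp2, which coats vacuoles that hold microbes, was at 7.83, 6.68, 4.27 and 6.81 CPM in control and 13.8, 16.7, 13.6, 14.2 and 13 CPM in LPS libraries, and at 3.89, 3.77, 4.71, 4.53 and 4.29 CPM in sedanolide and 9.44, 10.9, 9.5, 10.3 and 9.01 CPM in co-treated libraries. It too was separate in both pairs, with a log2 change of 1.15 (SE 0.14, adjusted p = 5.8e-06) and 1.21 (SE 0.13, adjusted p = 2.83e-06). In the table's coordinates, whose build is not given in the sources used here, Gbp5 (ENSMUSG00000105504) lies on chromosome 3 from 142199739 to 142228105 and Gbp2 (ENSMUSG00000028270) from 142326363 to 142343769, both on the plus strand.

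Gbp6 was at 2.55, 0.881, 1.03 and 1.8 CPM in control and 1.18, 1.77, 1.65, 1.71 and 1.13 CPM in LPS libraries, and at 0.366, 0.293, 0.667, 0.294 and 0.594 CPM in sedanolide and 1.56, 1.41, 1.13, 1.19 and 0.474 CPM in co-treated libraries. It overlapped between LPS and control (log2 change -0.08, SE 0.33, adjusted p = 0.913). Co-treated 5, at 0.474 CPM, was the only co-treated library inside the sedanolide range (1.37, SE 0.36, adjusted p = 0.0251), a call lost without any 1 of sedanolide 1, 2 and 4 and co-treated 1, 2 and 4. Gbp9 was called against control (0.72, SE 0.19, adjusted p = 0.0187), a call lost without control 1, 4 or 5, and it overlaps Gbp4 and Gbp8 on the same strand. Gbp genes are near-identical in part, so reads may have been split among them. Igtp and Irgm1 encode GTPases of the IRG family that act on vacuoles and autophagy, and Irgm1 was called against sedanolide (0.73, SE 0.14, adjusted p = 0.00249). Igtp, which overlaps Irgm2, and Iigp1 were not called in either comparison.

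Of the 2 secreted proteins, Lgals3bp, a galectin-3-binding glycoprotein, was at 31.4, 21.6, 13.2 and 21.5 CPM in control and 57.8, 60.5, 55.6, 54.8 and 72 CPM in LPS libraries, and at 13.3, 11.3, 21.2, 18.5 and 16.4 CPM in sedanolide and 46.3, 48.5, 48.5, 52.7 and 46.5 CPM in co-treated libraries. In the table's coordinates Lgals3bp (ENSMUSG00000033880) lies on chromosome 11 from 118283577 to 118292918. Every LPS-injected library was at least at 46.3 CPM and every other library at most at 31.4 CPM. The log2 change was 1.45 (SE 0.19, adjusted p = 2.39e-05) against control and 1.59 (SE 0.18, adjusted p = 6.13e-06) against sedanolide. Fgl2, encoding a fibrinogen-like prothrombinase, was at 8.05, 4.82, 1.72 and 5.6 CPM in control and 4.09, 11.2, 4.85, 8.52 and 4.45 CPM in LPS libraries, and at 1.33, 1.22, 1.51, 1.76 and 1.83 CPM in sedanolide and 4.26, 4.36, 3.72, 3.72 and 2.2 CPM in co-treated libraries. Controls and LPS libraries overlapped (0.38, SE 0.34, adjusted p = 0.54), and co-treated libraries were all above the sedanolide libraries (1.25, SE 0.35, adjusted p = 0.0418), a call lost without control 2 or 5, any sedanolide library or co-treated 1, 2, 3 or 4.

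A group of 15 members was called in neither LPS comparison: Stat2, Ifih1, Eif2ak2, Ifit1, Ifit2, Oasl2, Mx1, Rsad2, Cmpk2, Ifi35, Isg15, Usp18, Gbp7, Igtp and Iigp1. Several of these are classical type I interferon targets. Rsad2, encoding viperin, which makes a chain-terminating nucleotide, was at 3.1, 2.6, 3.24 and 3.76 CPM in control and 2.4, 3.57, 2.84, 4.24 and 3.27 CPM in LPS libraries, and at 2.56, 2.74, 2.27, 2.64 and 2.28 CPM in sedanolide and 3.21, 3.08, 3.57, 2.57 and 3.36 CPM in co-treated libraries. Its groups overlapped in both pairs (log2 change 0.04, SE 0.16, adjusted p = 0.921, and 0.34, SE 0.15, adjusted p = 0.268). Cmpk2, the mitochondrial nucleotide kinase next to Rsad2 on chromosome 12, was at 20.5 to 27.2 CPM over all 19 libraries, with log2 changes of -0.1 (SE 0.09) and 0.02 (SE 0.08). Mx1, encoding the dynamin-like GTPase that blocks influenza virus, was at 0 CPM in control 4 and at 0.0978 to 1.55 CPM elsewhere, too few counts for a precise change (0.88, SE 0.57, and 1.6, SE 0.58). Among members with a promoter window, the response element was found in 63.6% of the 11 called and 60% of the 20 not called against control, and in 57.9% of the 19 called and 66.7% of the 12 not called against sedanolide.

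**Figure D3:**
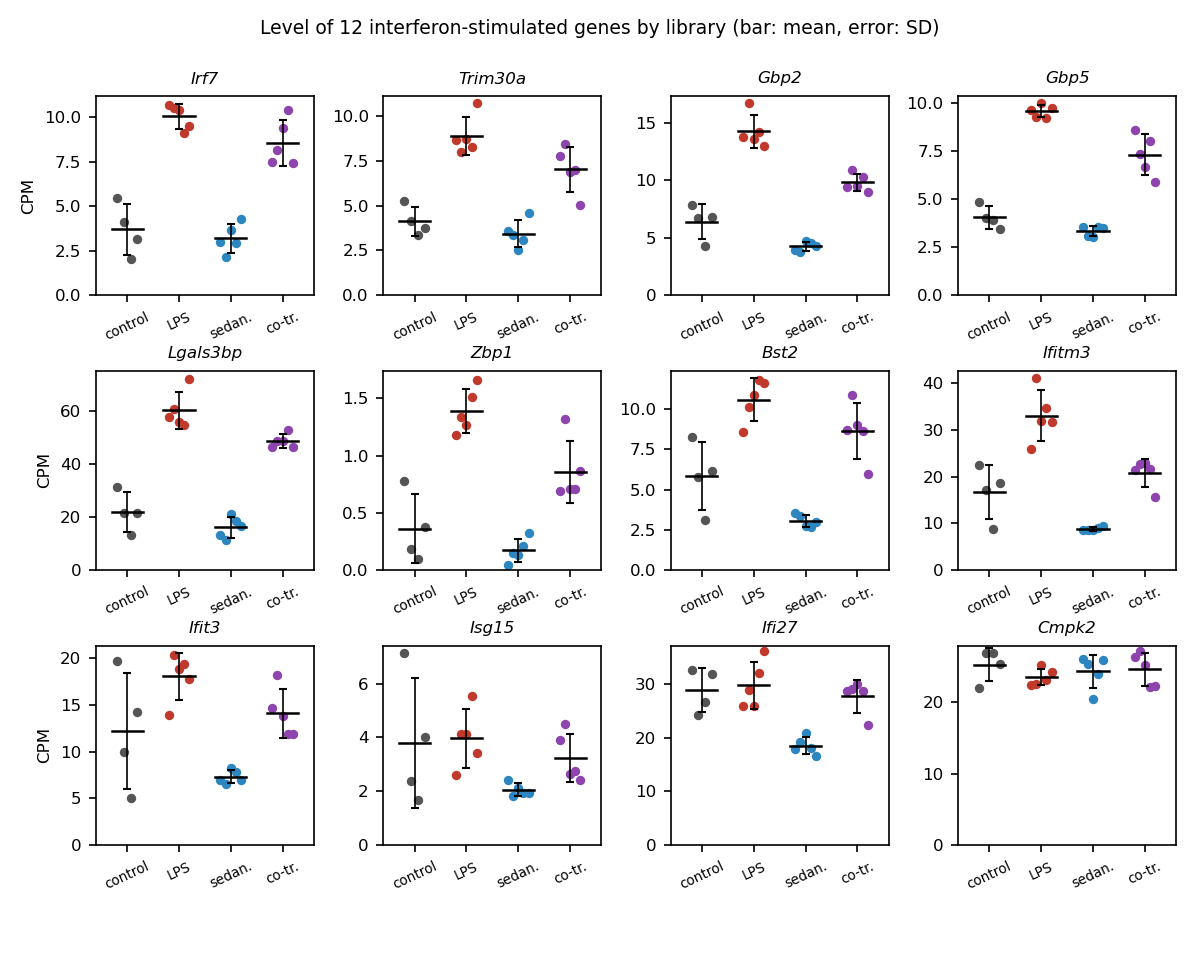
CPM of 12 members in each library of the 4 groups (x axis; points are libraries, the bar is the mean and the error bar 1 SD, n = 4 control and 5 in the other groups), with the y axis from 0. Irf7, Gbp2, Gbp5 and Lgals3bp separate the LPS-injected groups from the others, Trim30a does so except that co-treated 5, at 5.04 CPM, lay below control 1, at 5.25 CPM, Ifi27 was at 16.6 to 20.8 CPM in sedanolide libraries and at 22.3 CPM or more elsewhere, and Cmpk2 was at 20.5 to 27.2 CPM throughout.

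The comparison of sedanolide with control asked what sedanolide did without LPS. Of the 42 members, 10 were called lower and 0 higher, against 2.11% of all genes called lower and 3.2% called higher: Ifit2, Bst2, Ifitm2, Ifitm3, Rtp4, Ifi27, Ifi27l2a, Gbp2, Gbp6 and Fgl2. The median log2 change was -0.54, beside -0.01 over all genes tested, and 41 of 42 changes were below 0, with Stat2 (0.13, SE 0.11) above it. In 6 members every sedanolide library was below every control, which held for 3.56% of all genes. The number called lower rested on single libraries of both groups: it was 1 without control 5, 5 without control 1, 6 without sedanolide 4 and 19 without control 4. It was 7 without sedanolide 1 and 8 without sedanolide 5. Over all genes 48, 157, 93, 620, 265 and 130 were called lower in these fits in turn, beside 375 with all libraries. With the sedanolide and control groups fitted alone, or with the libraries of low Cdhr1 alone (n = 2 control, 3 sedanolide), 0 members were called (40 of the 42 entered the fit of these groups alone), as the share of all genes called fell from 5.31% to 0.113% and 0.0451%. In the libraries of low Cdhr1 the members' median was -0.23. With the olfactory bulb index as a covariate over all 19 libraries, 11 members were called lower and 0 higher, with a median of -0.39. In that fit 8.26% of all genes were called.

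Ifi27 had the smallest adjusted p in this comparison, and it was the only one of the 10 calls kept in every fit without 1 library (log2 change -0.64, SE 0.12, adjusted p = 0.00761). Ifi27 (ENSMUSG00000064215) lies on chromosome 12 from 103400470 to 103406498 in the table's coordinates. Its 5 sedanolide libraries, at 16.6 to 20.8 CPM, were all below its 4 controls, at 24.2 to 32.7 CPM, and its change in the libraries of low Cdhr1 was -0.53. Gbp6 changed by -1.82 (SE 0.36, adjusted p = 0.0128), Rtp4 by -0.74 (SE 0.15, adjusted p = 0.014) and Ifitm3 by -0.93 (SE 0.19, adjusted p = 0.0137), and each of these calls was lost without control 5. The values of Rtp4 were 4.36, 4.08, 3.09 and 5.01 CPM in controls and 2.97, 2.25, 2.49, 2.01 and 2.7 CPM in sedanolide libraries. They did not overlap, whereas Ifitm3, at 8.7 CPM in control 4, overlapped the sedanolide range of 8.56 to 9.5 CPM. Fgl2 changed by -1.72 (SE 0.36, adjusted p = 0.0152), a call lost without control 5, and control 4, at 1.72 CPM, was again inside the sedanolide range. Ifi27l2a changed by -2.06 (SE 0.53, adjusted p = 0.0338), a call lost without control 1 or 5 or sedanolide 1, 4 or 5.

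The other 4 calls were those of Bst2, Ifitm2, Gbp2 and Ifit2. Bst2 changed by -0.93 (SE 0.21, adjusted p = 0.0201), a call lost without control 1 or 5 or sedanolide 4. Ifitm2 changed by -0.98 (SE 0.25, adjusted p = 0.032), a call lost without control 1, 2 or 5 or sedanolide 1, 3 or 4. Gbp2 changed by -0.6 (SE 0.14, adjusted p = 0.0213), a call lost without control 1 or 5, and Ifit2 by -0.64 (SE 0.16, adjusted p = 0.03), a call lost without control 1 or 5 or sedanolide 1, 4 or 5. Ifit2 was at 20.9, 12.1, 14 and 18.7 CPM in controls and 10.1, 10.3, 10.9, 11.3 and 10.1 CPM in sedanolide libraries, with no overlap. Gbp2 overlapped in this pair, since control 4, at 4.27 CPM, lay within the sedanolide range of 3.77 to 4.71 CPM.

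The controls themselves were the most variable group. The median coefficient of variation of the members was 31.8% over the 4 controls, beside 17.3% over all genes tested, and 12.3%, 14.7% and 14.9% in the LPS, sedanolide and co-treated groups, beside 15.4%, 15.2% and 11.4%. Control 1 had the highest control value for 32 of 42 members and control 4 the lowest for 30. Control 1 was above every sedanolide library for 37 members, control 5 for 30, control 2 for 28 and control 4 for 9. The markers of border macrophages, 6 genes of perivascular and meningeal cells, summed to 24.6, 29, 9.04 and 18.8 CPM in controls 1, 2, 4 and 5 and to 9.75 to 15.3 CPM in the sedanolide libraries, so control 4 was lowest here too, while control 2 and not control 1 was highest. All 6 were detected in each group, 1 of them was called lower in sedanolide against control (beside 2.11% of all genes), and their part in the result was not tested. The 4 olfactory bulb markers summed to 719, 8.11, 7.66 and 362 CPM in the same controls, high in controls 1 and 5, and to 4.3 to 328 CPM in the sedanolide libraries. Choroid plexus markers summed to 5.52 to 7.94 CPM in controls and 2.47 to 4.62 CPM in sedanolide libraries, with no overlap, and red blood cell markers to 192 to 289 and 94.2 to 232 CPM, and their part was likewise not tested.

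**Figure D4:**
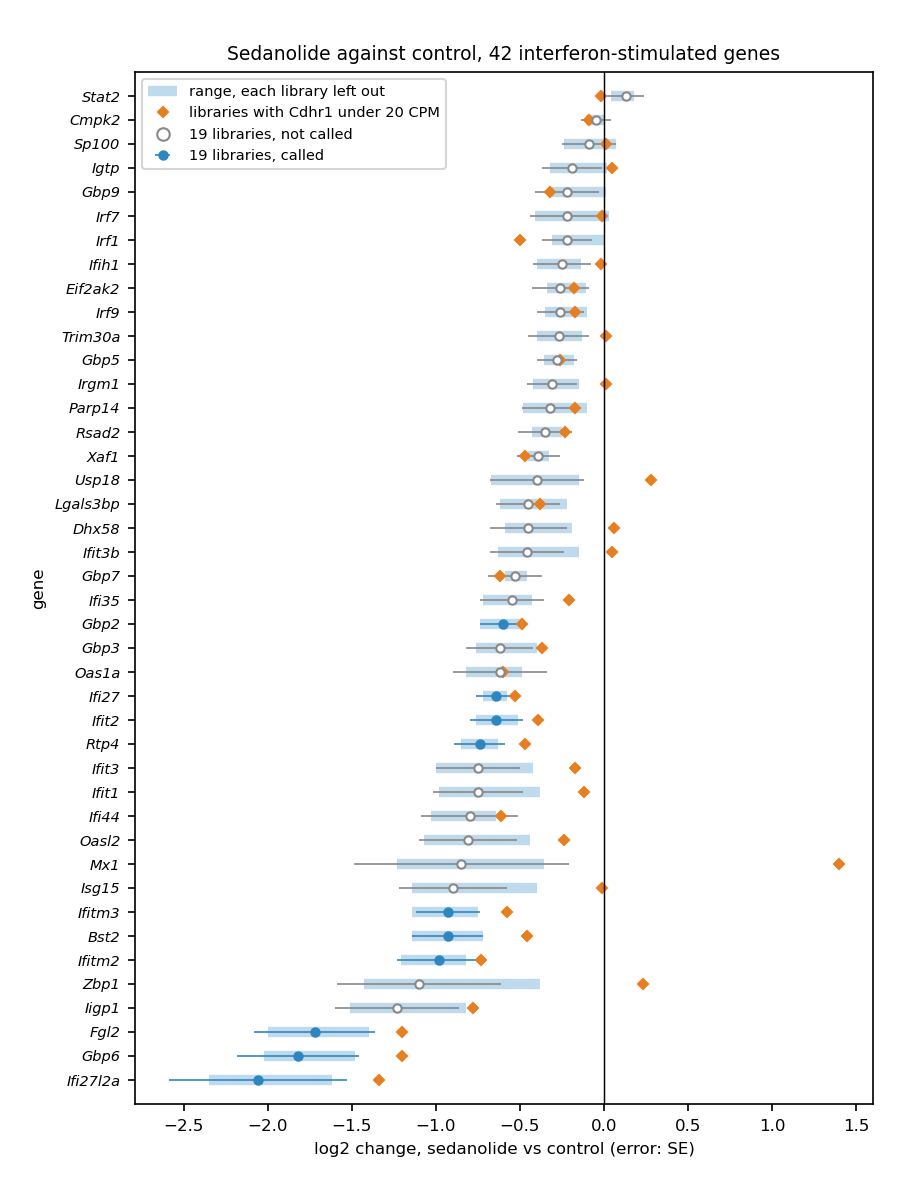
Log2 change of each member (rows) in sedanolide against control, as circles with bars of 1 SE, filled where called; the pale band is the range over fits that each left out 1 library and the diamond the value in libraries with Cdhr1 under 20 CPM. The circles run from -2.06 (Ifi27l2a) to 0.13 (Stat2), and most diamonds lie nearer 0 than their circles, that of Mx1 at the far right.

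The comparison of co-treated with LPS asked whether sedanolide altered the members in LPS-injected mice. A single member, Gbp2, was called lower and 0 higher, against 1.68% and 0.287% of all genes. That is 2.38% of the 42, near the share of all genes, so nothing is read from the count. Gbp2 was at 13.8, 16.7, 13.6, 14.2 and 13 CPM in the LPS libraries and at 9.44, 10.9, 9.5, 10.3 and 9.01 CPM in the co-treated libraries, with no overlap (log2 change -0.54, SE 0.12, adjusted p = 0.0294). The call was lost when any 1 of LPS 2, 3 and 4 and co-treated 1, 3, 4 and 5 was left out, and with the libraries of low Cdhr1 alone (-0.44, adjusted p = 0.322). Of the 42 changes, 39 were below 0, with a median of -0.3 beside -0.01 over all genes tested. The median was -0.16 with the libraries of low Cdhr1 alone (n = 2 LPS, 5 co-treated), -0.08 with the bulb index as a covariate and -0.2 without co-treated 5. In 8 members every co-treated library was below every LPS library, which held for 4.6% of all genes. Next to Gbp2 by adjusted p were Ifitm3 (-0.67, SE 0.18, adjusted p = 0.0554), Ifitm2 (-0.85, SE 0.23, adjusted p = 0.0577), Gbp5 (-0.39, SE 0.11, adjusted p = 0.067) and Dhx58 (-0.7, SE 0.2, adjusted p = 0.0748). The number called was 5 without control 1, 3 without control 4 or LPS 1, 2 without LPS 5 or co-treated 2, and 0 without each of the libraries that ended the Gbp2 call. Over all genes 299 were called lower with every library, and 113 to 520 when 1 library was left out. Markers of other cell types were lower in the same comparison: 5 of 7 tested neutrophil, 3 of 6 monocyte, 3 of 10 endothelial and 3 of 6 border macrophage markers were called lower and 0 higher, with 0 of 10 microglial markers called, and their part in the members' changes was not tested.

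Against control, 7 members were called higher in co-treated libraries and 0 lower, beside 6.38% and 4.69% of all genes. They were Irf7 (log2 change 1.21, SE 0.22, adjusted p = 0.00126), Trim30a (0.77, SE 0.17, adjusted p = 0.00851), Parp14 (0.63, SE 0.17, adjusted p = 0.0269), Sp100 (0.62, SE 0.16, adjusted p = 0.0176), Gbp2 (0.61, SE 0.14, adjusted p = 0.00668), Gbp5 (0.85, SE 0.12, adjusted p = 0.000102) and Lgals3bp (1.14, SE 0.19, adjusted p = 0.000618). The calls of Sp100 and Parp14 were lost without control 5, and that of Parp14 also without control 4 or co-treated 2 or 4. The median log2 change was 0.27, beside 0.01 over all genes tested, and 6 members were above every control in every co-treated library, which held for 7.91% of all genes. Without control 1 the count was 11, and without control 2 1 member was called lower. With the bulb index as a covariate 12 members were called higher, and with the libraries of low Cdhr1 alone (n = 2 control, 5 co-treated) 13. Over all genes 777 and 475 were called higher there, beside 1133 in the model of all libraries. In the first of these fits 1 of the 7 calls was lost and 6 were new, and in the second 2 were lost and 8 were new. The median was 0.45 and 0.62 in these fits, 0.43 without control 1 and 0.15 without control 4.

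The interferons themselves were barely present. Over all 19 libraries, the 21 ligand genes looked for had 9 counts in total: 4 for Ifng, 2 each for Ifnk and Ifnz and 1 for Ifnb1. Ifna1, Ifna2, Ifna4, Ifna5, Ifna6, Ifna7, Ifna9, Ifna11, Ifna12, Ifna13, Ifna14, Ifna15, Ifna16, Ifnab, Ifne, Ifnl2 and Ifnl3 were at 0 counts. In any 1 library a count of 0 allows a level of up to 0.111 to 0.161 CPM (3 counts of a library total, counting error only), so a lower level there could go unseen. For genes at 0 in all 19 libraries the limit on the mean level is lower, and it was not computed. No ligand gene entered the model.

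Transcripts of Ifnar1, Ifnar2, Ifngr1 and Ifngr2, the receptor chains of both interferon types, were detected in every library. Of 9 tested genes for receptor chains, their kinases and Stat3, 4 were called higher against control (Ifngr1, Ifnar1, Ifnar2 and Stat3) and 3 against sedanolide (Ifngr1, Ifnar2 and Ifnar1), beside 8.47% and 5.09% of all genes. Ifngr1 was at 25.7, 26.3, 18.7 and 24.1 CPM in controls and 42.9, 46.9, 45.2, 45.4 and 52.4 CPM after LPS, with no overlap (log2 change 0.97, SE 0.1, adjusted p = 1.85e-06), and at 39.3 CPM ± 4.61 (SD, n = 5) in co-treated against 21.3 ± 1.41 (n = 5) in sedanolide libraries (0.89, SE 0.1, adjusted p = 3.68e-06). Ifnar1 changed by 0.51 (SE 0.07, adjusted p = 4.64e-05) and 0.27 (SE 0.07, adjusted p = 0.0153), and Ifnar2 by 0.64 (SE 0.11, adjusted p = 0.000334) and 0.63 (SE 0.1, adjusted p = 0.000357). Stat3 changed by 0.52 against control (SE 0.16, adjusted p = 0.0459). Ifngr2 and Il10rb missed the threshold in both LPS comparisons, with adjusted p of 0.113 and 0.067 against control, and Ifnlr1, at group means of 0.137 to 0.327 CPM and at 0 in co-treated 2 and 5, was too low for the model. Against control, co-treated libraries had 4 of these genes higher, beside 6.38% of all genes: Ifngr1, Ifnar1, Ifngr2 and Ifnar2.

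Of 18 sensing and induction genes, 13 were called higher against control and 8 against sedanolide, beside 8.47% and 5.09% of all genes, with 0 lower in either. Against control these were led by Irf8, a myeloid transcription factor (log2 change 1.96, SE 0.12, adjusted p = 6.33e-09), Sting1, the adaptor of cytosolic DNA sensing (1.43, SE 0.14, adjusted p = 6.86e-07), Tlr7 (1.6, SE 0.16), Irf5 (1.56, SE 0.17), Tlr9 (1.93, SE 0.22), Ticam2 (1.9, SE 0.29), Rigi (0.8, SE 0.15) and Irf2 (0.34, SE 0.08). Of the negative regulators, Ptpn6, encoding the phosphatase SHP-1 of haematopoietic cells, and Socs3, the feedback inhibitor of STAT3, were the 2 of 10 called against control (1.94, SE 0.12, and 1.11, SE 0.19), and Ptpn6 was the 1 called against sedanolide (1.49, SE 0.11). Ptpn6 was also called lower in co-treated against LPS libraries (-0.51, SE 0.11, adjusted p = 0.019), the 1 of 10 in that comparison. Over all genes 8.47% and 5.09% were called higher in the LPS comparisons and 1.68% lower in this one. Counts this small rest on single genes, and nothing is read from them for the 10 regulators.

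A further 53 tested interferon-stimulated genes outside the 42 were called in 28 cases against control and in 25 against sedanolide, all higher. Over all genes 8.47% and 5.09% were called higher in these comparisons. Those with the smallest p against control were Ifi30 (log2 change 2.27, SE 0.18), Apobec3 (1.64, SE 0.15), Epsti1 (2.18, SE 0.21), Lgals9 (1.07, SE 0.12), Slfn2 (1.73, SE 0.2), Sp140 (2.17, SE 0.25), Sp110 (1.18, SE 0.18) and Ifi204 (2.67, SE 0.41). In sedanolide against control 2 of the 53 were called lower (Plscr1 and Ifi203) and 2 higher (Znfx1 and Adar), and in co-treated against LPS 2 were called lower (Samhd1 and Ifitm1). Those shares are near the 2.11% lower, 3.2% higher and 1.68% lower of all genes in these comparisons, and nothing is read from them. Of 21 tested interferon-gamma-induced genes, 9 were called higher in each LPS comparison, beside 8.47% and 5.09% of all genes. B2m, Tap1, Psmb9 and Psmb8, which serve antigen presentation by MHC class I, changed by 1.45 (SE 0.15), 1.61 (SE 0.19), 1.34 (SE 0.19) and 1.19 (SE 0.19) against control and by 1.83 (SE 0.14), 1.6 (SE 0.18), 1.44 (SE 0.18) and 1.73 (SE 0.18) against sedanolide. Of the same list, Tap2, Tapbp and Psmb10 had means of 7.26, 32.5 and 26.8 CPM in control and 10.7, 44.6 and 31.5 CPM in LPS libraries. Their means were 5.43, 28.3 and 26.8 CPM in sedanolide and 7.06, 35.9 and 33.4 CPM in co-treated libraries. Not every called gene of this list is named. Gbp4 was called lower in co-treated against LPS libraries (-0.99, SE 0.16, adjusted p = 0.00255), and Cd74, Gm4951 and Ifi47 were lower in sedanolide than in control libraries (-1.41, -1.77 and -0.85). These were 1 and 3 of the 21, beside 1.68% and 2.11% of all genes called lower, and the first count rests on a single gene.

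Markers of several cell types moved with LPS beside the members. Microglial markers, all 10 detected in every group, summed to 418 to 674 CPM in controls, 1010 to 1280 after LPS, 534 to 684 with sedanolide and 1010 to 1310 in co-treated libraries, and 8 of the 10 were called higher in each LPS comparison, with median log2 changes of 1.1 and 0.82. Endothelial markers summed to 356 to 559, 700 to 865, 408 to 484 and 497 to 650 CPM in the same order, with 10 of 10 called against control and 4 against sedanolide. The shares of all genes called higher were 8.47% against control and 5.09% against sedanolide. Neutrophil markers (8 genes) summed to 7.35 to 12, 61.5 to 67.2, 5.58 to 12 and 29.7 to 40.8 CPM. Outside the LPS group most of this sum was Csf3r. Its group means were 5.85, 26, 6.99 and 22.6 CPM, beside 9.31, 65, 8.23 and 34 CPM for the sum. Monocyte markers (6 genes) summed to 1.82 to 2.46, 5.45 to 9.98, 0.622 to 1.65 and 2.07 to 3.48 CPM. They were mixed, with 5 called higher and 1 lower against control, and 2 higher and 1 lower against sedanolide. The lower one, Cd209a, had group means of 0.74, 0.163, 0.556 and 0.188 CPM. T and NK cell markers (12 genes) summed to 1.81 to 2.78, 9.59 to 12, 1.01 to 1.64 and 5.95 to 8.39 CPM. Ly6g, Klrb1c and Prf1 were at 0 in the sedanolide group. Their control means, 0.0209, 0.0982 and 0.0412 CPM, were also under the floor of 3 counts in 1 library (0.111 to 0.161 CPM). Ly6g was at 0 in controls 1, 2 and 4 too, and Prf1 in control 2. Klrb1c was at 0.0418 to 0.147 CPM in the controls and at 0 in none of them. Of the 9 tested T and NK cell markers, 0 were called in sedanolide against control. The summed markers of astrocytes (3560 to 5920 CPM over all libraries) and oligodendrocytes (1330 to 5040 CPM) had overlapping ranges in all groups. Of the 6 astrocyte markers, Gfap, the filament protein of reactive astrocytes, was called higher in both LPS comparisons: it was at 120 to 371 CPM in controls and 449 to 844 CPM after LPS (log2 change 1.38, SE 0.37, adjusted p = 0.0197), and at 69.2 to 317 CPM with sedanolide and 337 to 482 CPM in co-treated libraries (1.47, SE 0.34, adjusted p = 0.0123). The list of plasmacytoid dendritic cells could not be read, since 211 to 290 CPM of its sum was Tcf4, which neurons and glia also express, and it contains the member Bst2. The part of any of these cells in the members' changes was not tested.

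**Figure D5:**
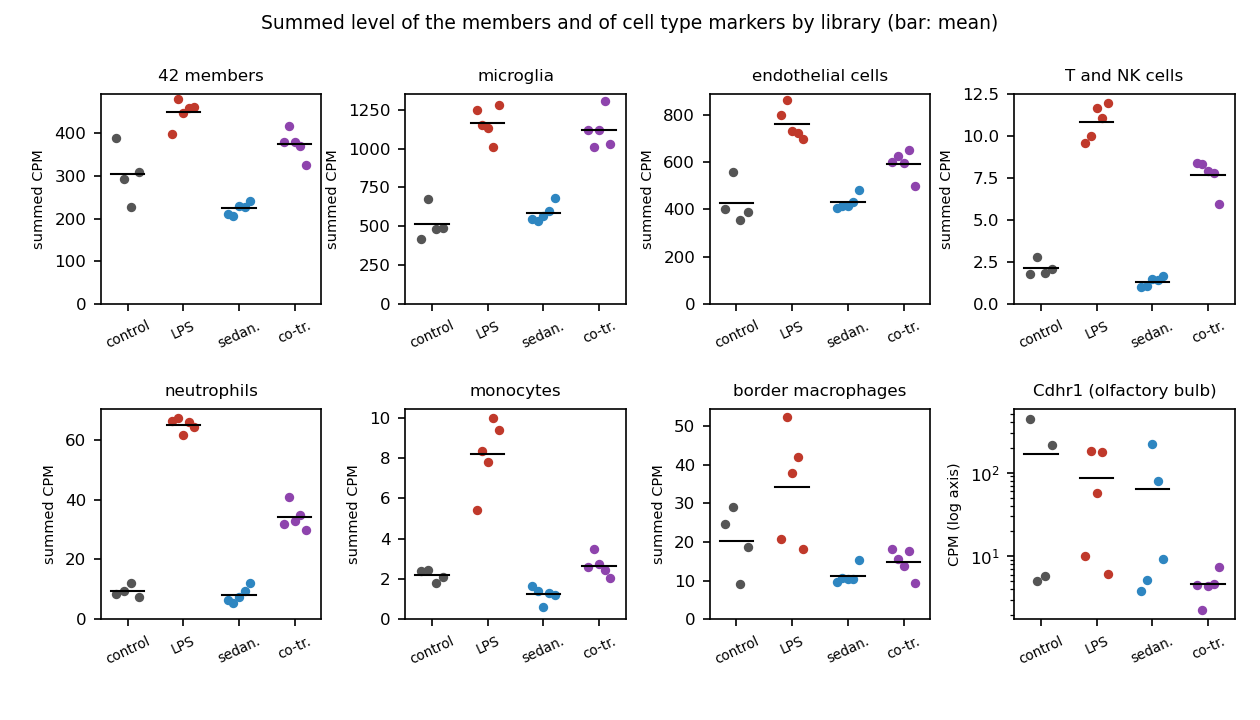
Summed CPM of the 42 members and of 6 cell type marker lists, and CPM of the bulb gene Cdhr1 on a log axis, in each library (points; bar, group mean; y axes from 0 except Cdhr1). Member sums were 399 to 480 CPM after LPS and 207 to 242 CPM with sedanolide, every LPS library was above every control for microglial, endothelial, neutrophil, monocyte, T and NK cell sums, and Cdhr1 was under 20 CPM in all 5 co-treated libraries.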

How the data were processed

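The values deposited by the authors are raw counts, whole numbers of reads for each of 57010 genes in 19 libraries of mouse medial prefrontal cortex. Per the labels' protocols, RNA was extracted with TRIzol, captured with oligo(dT) beads and made into stranded libraries. Per the submitters' processing notes, fastp, HISAT2, StringTie, RSEM and DESeq2 were used, with no versions. Genome build, counting settings and use of strand are not given in the sources used here. Reads shared by overlapping genes therefore cannot be told apart, and reads of near-identical copies may be split. Of the 42 members, 19 overlap another gene. Their partners had 0 to 7 counts over all libraries for Eif2ak2, Ifitm2, Gbp2, Gbp7, Trim30a, Gbp6, Parp14, Ifitm3, Ifi35, Sp100 and Usp18. Partner counts were 79 to 229 for Dhx58, Fgl2 and Irf1. They were 1617 for Gbp9, 4274 for Igtp, 7148 for Rtp4, 7212 for Irf9 and 19948 for Irf7.

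The model was edgeR 4.0.16 under R 4.3.3: TMM factors, filterByExpr by group (17757 genes kept) and the robust quasi-likelihood test. All 19 libraries shared 1 model with a mean per group. Tests were two-sided with Benjamini-Hochberg adjustment across the 17757 genes, and calls were made below 0.05. The SE is the size of the log2 change divided by the root of F. The interaction is the LPS change with sedanolide minus that without. All members are named. Outside them, at most 8 genes called in a list are named per comparison, in some comparisons fewer or none, and all ligands and receptor chains are named. A gene of the receptor and kinase list is not reported here and was left out of its counts. Members and lists were chosen with earlier results of these data known, so their direction is no independent evidence. The model was also run on simulated counts with known changes, and the outcome of that run is not given here. No pair of libraries in a group held the same values (0 of 36 identical). Alternatives were RLE and upper-quartile factors, other expression filters, DESeq2 1.42.0, only the groups compared, a replicate block, leaving out each library, an olfactory bulb index as covariate, and libraries with Cdhr1 under 20 CPM. RefSeq promoter windows on GRCm38.p6 were searched for 2 motifs. The floor of 3 counts covers counting error only.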

Additional observations from a re-analysis of the deposited data

Results flagged for a closer look

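In 9 of 168 combinations of member and group (5.36%), 1 library stood apart from the rest of its group by a gap test (Dixon's, at the 95% level), which chance alone gives in about 1 of 20 groups. In the co-treated group, Irf1 was at 10.2 CPM in co-treated 4 and 8.36 to 8.75 CPM in the other 4 libraries, Zbp1 at 1.32 CPM in co-treated 2 and 0.688 to 0.862 CPM in the others, and Iigp1 at 4.97 CPM in co-treated 2 and 2.34 to 3.06 CPM in the others. Co-treated 5 was low for Ifitm3, at 15.6 CPM beside 21.3 to 22.8 CPM, and for Ifi27, at 22.3 CPM beside 28.7 to 30.0 CPM. In controls, Stat2 was at 14.4 CPM in control 5 and 18.8 to 19.5 CPM in the other 3, and Gbp9 at 7.93 CPM in control 2 and 4.43 to 4.91 CPM in the others. Ifit1 was at 1.91 CPM in sedanolide 2 and 3.43 to 3.69 CPM in the other sedanolide libraries. Trim30a was at 10.7 CPM in LPS 5 and 7.97 to 8.72 CPM in the other LPS libraries.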

How the results depend on the processing

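No member change that was called reversed its direction under any alternative run. Members called lower in co-treated against LPS numbered 1 in the model of all libraries, 0 with no expression filter, 0 with the replicate block, 0 with the bulb index as covariate, 0 with libraries of Cdhr1 under 20 CPM, 3 with only the groups compared and 6 with DESeq2. Over all genes, 299 were called lower in the model of all libraries, and 218, 123, 111, 21, 565 and 710 in these alternatives in turn. Members called lower in sedanolide against control numbered 10. The number was 0 with only the groups compared, 1 with the replicate block, 11 with the bulb index as covariate, 0 with libraries of Cdhr1 under 20 CPM, and 15 with DESeq2 (of 40 with an adjusted p). Over all genes, 375 were called lower in the model of all libraries, and 12, 44, 573, 7 and 788 in these alternatives in turn. Members called higher in co-treated against control numbered 7, and 12 with the bulb index as covariate and 13 with libraries of Cdhr1 under 20 CPM. Over all genes 1133, 777 and 475 were called higher in the same order. With the bulb index as covariate 1 member was called higher in the interaction, Gbp6 (1.65, adjusted p = 0.0364), beside 1.77% of all genes called. The cause of these differences was not tested.

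Leaving out 1 library at a time gave 11 to 21 members higher in LPS against control, 21 to 28 in co-treated against sedanolide, 0 to 5 lower in co-treated against LPS, 1 to 19 lower in sedanolide against control, and 5 to 11 higher and 0 to 1 lower in co-treated against control. Over all genes the same counts ran from 1108 to 1816, 719 to 1107, 113 to 520 and 48 to 620. In co-treated against control 614 to 1544 were higher and 209 to 1363 lower. The counts for LPS against control were 11 to 21 and for co-treated against sedanolide 20 to 35 over all alternatives. Upper-quartile factors turned the split of all genes called in sedanolide against control from 568 higher and 375 lower to 340 higher and 568 lower, while members went from 0 higher and 10 lower to 0 higher and 11 lower.

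Same-numbered libraries of different groups did not deviate together: over 27 pairs the correlation of deviations ran from -0.57 to 0.29, and 4 were above 0.1. The replicate block gave 12 members higher in LPS against control, 20 in co-treated against sedanolide and 6 in co-treated against control. It called 1161, 761 and 686 of all genes higher in these comparisons, beside 1504, 904 and 1133 without the block. A fit of only the groups compared was not run for the interaction, which uses all groups. Mx1 and Zbp1, at under 2 CPM in every library, reached 0 or few counts in some, so their changes were imprecise.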
